A study of Drosophila melanogaster with 8 samples.

Results

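Long blocks of trimethylated lysine 9 of histone H3 (H3K9me3) in the gene-rich, euchromatic parts of arms 2L, 3L and 3R were followed in Drosophila melanogaster ovaries. The blocks were selected on enrichment measured in the control ChIP libraries. A block was a run of 1 kb windows, each with log2((ChIP RPKM + 1)/(input RPKM + 1)) of at least 1 in both control libraries, where RPKM is reads per kilobase of window, scaled to the library's total. Neighbouring windows were joined over gaps of 1 window, and a run needed 5 or more enriched windows. Windows with a mean input under 2 RPKM over the 4 inputs were left out. The search covered window starts from 0.1 to 20.05 Mb on 2L, 0.1 to 22.5 Mb on 3L and 1.5 to 27.8 Mb on 3R in genome build dm3, which hold 68651 windows, of which 66265 had enough input. In these intervals 629 windows met the enrichment rule and formed 345 runs, of which 16 were long blocks. The 16 blocks hold 114 enriched windows, 18.1% of those found, and the other 329 runs are short islands of 1 to 4 windows.

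Whole adult ovaries gave 8 libraries, 2 in each of 4 groups, by chromatin immunoprecipitation and sequencing (ChIP-seq). All flies carried the MTgal4 driver, were kept at 24 °C and received yeast for 2 to 3 days before dissection. The control genotype, taken here to be that with the hairpin shW, was set beside a genotype with the hairpin shSov, named for Sov. From each genotype there are 2 ChIP libraries made with an antibody to H3K9me3 and 2 inputs from lysate set aside before the antibody. The series title names a need for Sov in depositing this mark in germ cells, and the libraries bear on that question through whole ovaries, which also hold somatic cells, so enrichment kept in shSov need not be that of germ cells. Fewer cells carrying the mark and less mark per cell cannot be told apart in such material.

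H3K9me3 marks constitutive heterochromatin, where Heterochromatin Protein 1 binds it and helps to silence transposons. In the euchromatic arms the mark is known from isolated sites, among them transposon insertions, and in the ovary the piRNA pathway guides its deposition at part of them by way of the nuclear protein Piwi. From such a site the mark can extend into neighbouring sequence.

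ChIP totals were 4208693 and 6383061 reads in shW and 16514896 and 5847945 in shSov, and inputs held between 9760028 and 27962050 reads. Over the tested windows of the intervals the median ChIP window held 18 and 34 reads in shW and 98 and 33 in shSov. The blocks held between 332 and 3816 ChIP reads per library in shW and between 314 and 5346 in shSov. Replicates of each group differed by more than counting error, with a chi-square per degree of freedom from 1.41 in the shSov ChIP to 3.00 in the shW ChIP, and nothing in the labels says whether they came from separate dissections. The p-values therefore measure only the spread between these libraries. Median enrichment of the intervals was -0.69 and -0.50 in the shW libraries against -0.33 and -0.39 in the shSov libraries. The scale of shSov was thus 0.23 higher on the log2 scale over the bulk of the intervals, beside which each difference below can be read.

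The blocks were 5 to 11 kb long, with a median of 7 kb and 122 kb in all. Arm 2L held 3 of them, 3L held 5 and 3R held 8, against 19185, 21571 and 25509 tested windows on these arms. They are named here by arm and a letter in order along it. Block 2L-A spans 587001 to 596000, block 2L-B spans 10230001 to 10239000 and block 2L-C spans 16293001 to 16300000. On 3L, block 3L-A spans 371001 to 380000, block 3L-B spans 8096001 to 8103000, block 3L-C spans 13020001 to 13029000, block 3L-D spans 17862001 to 17868000 and block 3L-E spans 21477001 to 21486000. On 3R, block 3R-A spans 3877001 to 3883000, block 3R-B spans 3897001 to 3904000, block 3R-C spans 11762001 to 11770000 and block 3R-D spans 14965001 to 14972000. Block 3R-E spans 19112001 to 19119000, block 3R-F spans 21532001 to 21537000, block 3R-G spans 24950001 to 24956000 and block 3R-H spans 27620001 to 27631000. The genes at these positions were not analysed here, since the annotation at hand is of another build.

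The control values chose the blocks and are given as a description. Mean enrichment over a block's windows ran from 1.39 in block 3R-B to 2.10 in block 3R-H, with a median of 1.68 over the 16. The 3 blocks just inside the length limit had 5 enriched windows, and 16 runs just outside it had 4. The latter had control means from 1.28 to 2.03, with a median of 1.62, so they overlapped the blocks in level. Their shSov means ran from -0.06 to 1.47, with a median of 0.79, which overlapped the shSov means of the blocks.

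In shSov the 16 blocks spread out, from nearly no enrichment to values close to the control. The median block had 0.75 in replicate 1 and 0.76 in replicate 2, and block means ran from 0.15 in block 3R-F to 1.54 in block 3L-B. The order was shared by both shSov libraries, with Pearson's r = 0.96 across the 16 blocks, as a description. Both libraries were at 1 or more in 5 blocks and both were under 0.5 in 3. In all 16 blocks both shSov values lay under both shW values, an order found in 12.6% of all units into which the genome was divided for testing. The blocks were chosen for high shW values, so nothing is read from this count about the genotypes.

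**Figure D1:**
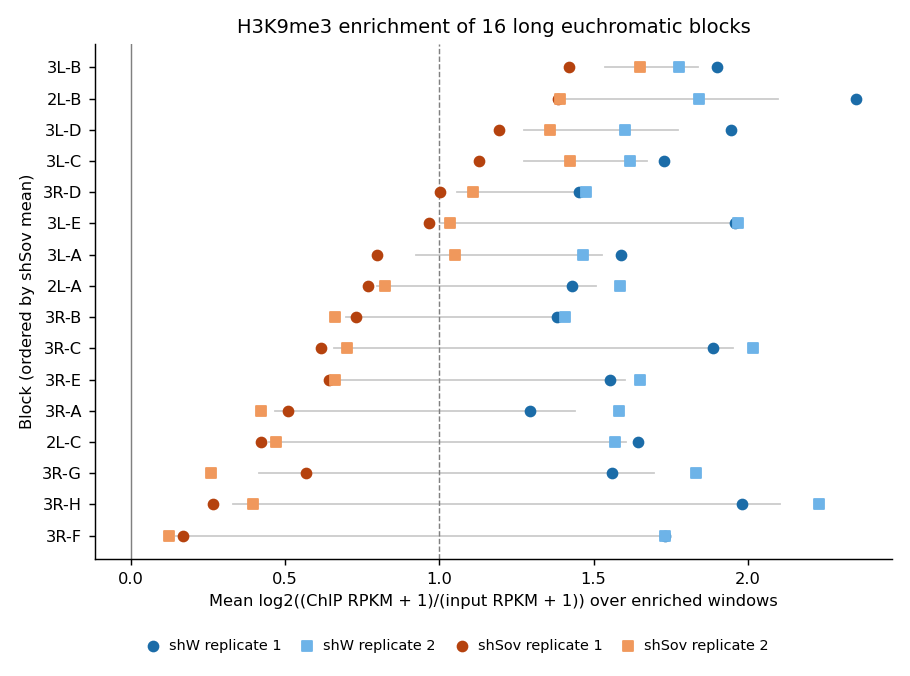
Mean log2 enrichment over the enriched windows of each block (x axis) for the 16 blocks (y axis, ordered by the shSov mean), with 1 point per library, grey lines joining the genotype means, and vertical lines at 0 and at the selection threshold of 1. The shW points lie at 1.29 or higher because they chose the blocks, while shSov means range from 0.15 to 1.54.

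The shSov libraries did not choose the blocks, so whether the mark was still present in shSov can be tested. edgeR's quasi-likelihood test on summed reads of the 4 shSov libraries compared ChIP with input over 12608 units, namely every enriched run of the genome and the remaining windows in tiles of up to 10. ChIP exceeded input in all 16 blocks at a Benjamini-Hochberg adjusted p under 0.05. The background was 19.6% of all units above input and 67.2% below it, and 5.83% of the units that lie in the 3 intervals were above. The weakest call was block 3R-F, at 0.23 on the log2 scale and an adjusted p of 0.00909 in edgeR, and the strongest was block 2L-B, at 1.63 and 5.94e-10. When the spread was shared with the shW libraries and shSov replicate 1 was left out, 11 blocks were called, and without shSov replicate 2 there were 10. Against a log2 excess of 0.5, edgeR called 11 of the 16. The blocks not called were 2L-C, 3R-A, 3R-F, 3R-G and 3R-H. The background shares above belong to the main test. None was computed with a replicate left out or against 0.5, so these counts have no share of all units beside them.

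By the share of its enriched windows that still reached 1 in both shSov libraries, a block was called kept at 80% or more, lost at 20% or less and partly kept between. A count of 1 block was kept, 5 were partly kept and 10 were lost, and in 8 of the 10 no window reached the level. These counts moved with single libraries and settings: shSov replicate 2 alone gave 3 kept and 5 lost, and an input minimum of 1 RPKM, or no joining over gaps, gave 0 kept. The classes follow the level left in shSov, not the size of the fall. Block 3L-A, called lost, differed from shW by -0.60, whereas 3L-E, partly kept, differed by -0.96. Of the 114 windows 32 reached the level in both shSov libraries, 28.1%, against 0.355% of all tested windows of the intervals. A total of 102 windows were above 0 in both shSov libraries, or 89.5%. The share was 8.19% over all tested windows of the intervals and 92.0% over windows of the short islands. A lost block is thus one with few or no windows at the 2-fold level, and need not be at the level of the arm throughout. Some windows of lost blocks were near the shSov interval medians of -0.33 and -0.39, such as the first of 3R-H, at -0.30 and -0.38. In 7 windows both shSov libraries were below 0. Counted by arm, 20 of 37 windows on 3L reached the level, 6 of 22 on 2L and 6 of 55 on 3R. The blocks of 1 arm are few, and the difference between arms was not tested.

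The blocks with the highest shSov levels were 3L-B, 2L-B, 3L-C, 3L-D and 3R-D. Block 3L-B had 1.90 and 1.78 in the shW libraries and 1.42 and 1.65 in the shSov libraries. Its ChIP signal was 43.1 and 41.2 RPKM in shW and 32.7 and 39.5 RPKM in shSov, so the gap between the groups was smaller than the difference between the shSov replicates. The highest window, 8099001 to 8100000, had 2.51 and 3.07 in shW and 2.24 and 2.41 in shSov. The genotypes had the same outline, with this summit, a dip to 1.60 and 1.04 in shW and 0.89 and 0.92 in shSov, and a rise again at the right end. In all, 5 of its 7 windows reached 1 in both shSov libraries.

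Block 2L-B had 2.35 and 1.84 in shW and 1.38 and 1.39 in shSov, and its ChIP signal was 90.5 and 56.2 RPKM in shW and 40.5 and 40.6 RPKM in shSov. The shW replicates were far apart here and the shSov replicates close together. The block is made of a pair of summits with a valley between them. The first window of the block had 2.02 and 2.26 in shSov and the last had 2.02 and 2.07, but the 3 windows of the valley had 0.26 to 0.44. In shW the valley had 0.88 to 1.55, so it belonged to the block through the control values and parted into separate peaks in shSov. A further enriched window 3 kb outside this block, at 1.70 and 1.60 in shSov and 2.91 and 1.84 in shW, kept the mark as well.

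Block 3L-C had 1.73 and 1.62 in shW and 1.13 and 1.42 in shSov, with 7 of 9 windows still at the level. Block 3L-D had 1.95 and 1.60 in shW and 1.19 and 1.36 in shSov, with 4 of 5 windows at the level, which made it the only kept block of the 16. It lay beside 5 windows with too little input to be tested, so its left end could not be followed. Block 3R-D had 1.45 and 1.48 in shW and 1.00 and 1.11 in shSov, with 4 of 7 windows at the level. Block 3L-E had 1.96 and 1.97 in shW and 0.97 and 1.04 in shSov. In that block the first enriched window dropped to 0.15 and -0.10 in shSov, from 2.09 and 1.27 in shW, while 4 of its 8 windows stayed at the level.

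The lowest shSov levels were those of 3R-F, 3R-H, 3R-G, 2L-C and 3R-A. Block 3R-F had 1.73 in both shW libraries and 0.17 and 0.13 in the shSov libraries, and its ChIP signal was 34.2 and 36.6 RPKM in shW and 10.8 and 11.97 RPKM in shSov. The window at 21533001 to 21534000 stayed at 0.79 and 1.09 in shSov, from 2.32 and 2.61 in shW. The other 4 windows lay between -0.34 and 0.23 in shSov. The remaining signal in shSov was thus centred on a single window.

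Block 3R-H was the longest, and its 11 windows divided in shSov. Mean enrichment was 1.98 and 2.23 in shW and 0.27 and 0.40 in shSov, the largest difference of the 16 at -1.77. The first 6 windows had between -0.38 and 0.26 in the shSov libraries, against 1.36 to 2.73 in shW. The next 4 windows had between 0.77 and 1.31 in shSov, against 2.14 to 2.81 in shW, and 1 of them reached 1 in both shSov libraries. The last window had 0.07 and 0.04 in shSov, against 1.54 and 1.81 in shW. Input over this block was 11.1 RPKM in shW and 12.4 RPKM in shSov, a difference of 0.16 on the log2 scale.

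Block 3R-G had 1.56 and 1.83 in shW and 0.57 and 0.26 in shSov, with the widest gap between the shSov replicates. Its window at 24952001 to 24953000 had 1.20 and 0.88 in shSov against 2.01 and 2.73 in shW. Block 2L-C had 1.64 and 1.57 in shW and 0.42 and 0.47 in shSov. Block 3R-C, with 1.89 and 2.02 in shW, had 0.62 and 0.70 in shSov and no window at the level in both. Blocks 2L-A, 3L-A and 3R-E likewise had no window at the level in both shSov libraries, with shSov means of 0.80, 0.93 and 0.65. In 3L-A shSov replicate 2 alone reached 1.05, against 0.80 in replicate 1.

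**Figure D2:**
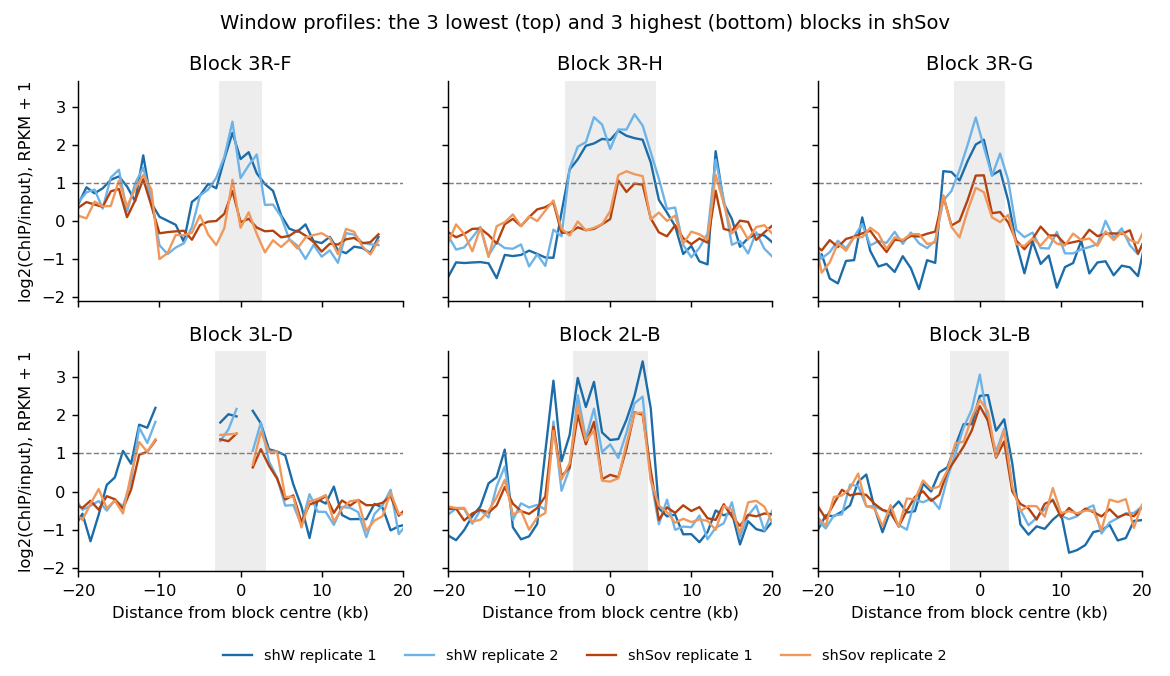
Log2 enrichment in 1 kb windows (y axis) against the distance from the block centre in kb (x axis) for the 3 blocks with the lowest and the 3 with the highest shSov means, with 1 line per library, the block shaded, a dashed line at 1 and breaks where input was too low to test. Block 3R-F keeps 1 summit in shSov, and block 3R-H has 4 windows right of its centre at 0.77 to 1.31 in shSov. The summit of block 3L-B is lower in shSov, at 2.24 and 2.41 against 2.51 and 3.07 in shW.

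Blocks 3R-A and 3R-B were neighbours, 14 kb apart, and the sequence between them was itself above the arm. Block 3R-A had 1.29 and 1.58 in shW and 0.51 and 0.42 in shSov, and block 3R-B had 1.38 and 1.41 in shW and 0.73 and 0.66 in shSov. Enrichment of at least 0.5 in both shW libraries ran on for 7 kb to the right of 3R-A and for 6 kb to the left of 3R-B. These were the longest such extents of the 32 edges. On the other side of 3R-A, 3 of the 5 nearest windows had too little input to be tested.

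In the control the mark dropped within a few windows of most edges. The window 1 kb outside the outermost enriched window averaged 0.93 and 0.64 in the shW libraries, the window at 2 kb averaged 0.37 and 0.21, and windows at 3 to 5 kb averaged -0.04 and -0.11. By 11 to 20 kb the mean was -0.46 and -0.38, still above the interval means of -0.61 and -0.46. The tested windows at 1 and 2 kb are under 1 in at least 1 shW library by the rule, since an enriched window there would have been joined to the block, so part of this drop is set by the choice of blocks. Followed outward without a break (a single untested window was passed over), enrichment of at least 0.5 in both shW libraries ended at the edge itself at 11 of the 32 edges, 1 or 2 kb out at 16 and 3 kb or more out at 5. The 11 include the left edge of 3L-D, whose 5 nearest windows were not tested. The stretch at 0.5 or more around a block was 10 kb long at the median and 7 to 15 kb over the 16.

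On average, the near flanks also lay lower in shSov. The first outside window averaged 0.17 and 0.18 in the shSov libraries and the second 0.01 in both. Over 1 to 5 kb, based on 151 windows, shW averaged 0.18 ± 0.09 (SD, n = 2), whereas shSov averaged -0.04 ± 0.01 (SD, n = 2). From 6 to 10 kb the groups overlapped, with -0.23 ± 0.04 (SD, n = 2) for shW beside -0.22 ± 0.01 (SD, n = 2) for shSov. From 11 to 20 kb shSov was the higher, at -0.31 ± 0.04 (SD, n = 2) against -0.42 ± 0.06 (SD, n = 2), as over the arms at large. On this scale the shSov values were lower to about 3 kb outside. Set against each library's own median over the intervals, the flank means were lower in shSov farther out. At 6 to 10 kb the flanks then lay 0.43 and 0.30 above the median in the shW libraries and 0.13 and 0.17 above it in the shSov libraries. At 11 to 20 kb they lay 0.23 and 0.12 above it in shW and 0.05 and 0.06 in shSov. These values set a mean against a median. The median flank window at 11 to 20 kb was at -0.52 in shW and -0.37 in shSov, close to interval medians averaging -0.60 and -0.36. Windows between 3R-A and 3R-B entered the flanks of both blocks. How far from the blocks shSov was lower thus depends on the scaling and on the use of means or medians. The nearest shW values are also raised by the choice of blocks.

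**Figure D3:**
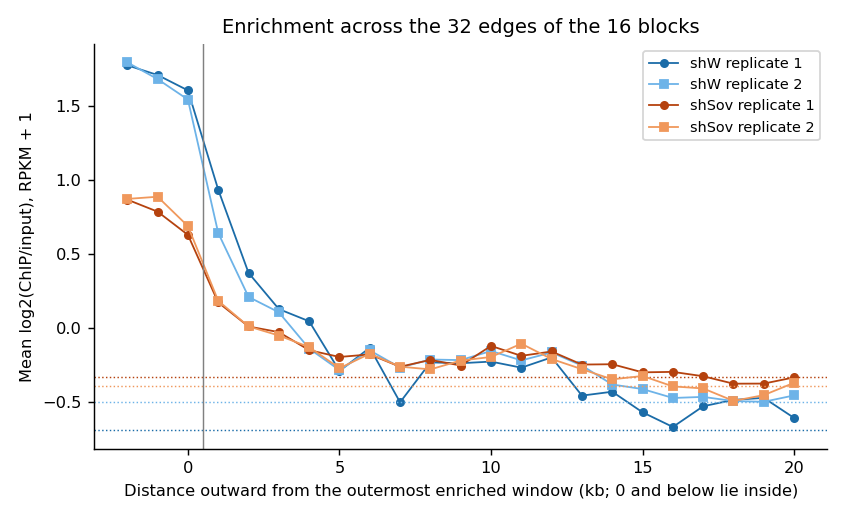
Mean log2 enrichment over the 32 block edges (y axis) against the distance in kb outward from the outermost enriched window (x axis, 0 and negative values inside), 1 line per library, with dotted lines at each library's median over the intervals. The shW lines drop from 1.60 and 1.54 at the edge to 0.37 and 0.21 at 2 kb, and the shSov lines from 0.63 and 0.69 to 0.01.

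Inside the blocks the outermost windows and the inner windows kept the same order in both genotypes. In shW the edges averaged 1.57 ± 0.04 (SD, n = 2) and the inner windows 1.77 ± 0.01 (SD, n = 2). In shSov the edges averaged 0.66 ± 0.04 (SD, n = 2) and the inner windows 0.88 ± 0.04 (SD, n = 2). The difference between the genotypes was -0.91 at the edges and -0.88 inside, so it was not larger at the edges by more than the replicate spread. The longest unbroken stretch at 0.5 or more in both libraries, within 20 kb of a block, had a median of 9.5 kb in shW and 3.5 kb in shSov. It was shorter in shSov at 12 blocks, equal at 3 and longer at 1, block 3L-B, with 8 kb against 7 kb. An untested window ended a stretch here, and 3L-D and 3L-E, both counted as equal, hold such a window. In 3L-E the enriched window to its left had 2.09 and 1.27 in shW and 0.15 and -0.10 in shSov. The shW values chose the blocks and so favour long stretches in shW. Nothing is read from these lengths about the genotypes. In 7 blocks the highest shW window was also the highest in shSov.

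Applied to the shSov libraries alone, the rule gave 2 blocks in the same intervals, and both lay within blocks of the control. The first covered 8097001 to 8103000 inside 3L-B, and the second covered 13020001 to 13027000 inside 3L-C. No block was found by this rule in shSov outside the 16.

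Since the shW values set the choice of blocks, the genotypes were compared with blocks picked in 1 shW library and measured in the other. Picking in shW replicate 1 gave 44 blocks, which overlap all 16 blocks above. Their median enrichment was 1.45 in the picking library, 1.29 in shW replicate 2 and 0.60 in shSov. The median difference from shW replicate 2 was -0.51, both shSov libraries were lower in 37 of the 44, and edgeR's quasi-likelihood interaction of genotype and antibody called 25 lower and 0 higher at an adjusted p under 0.05. Without adjustment, edgeR's p was under 0.05 for 27 lower blocks. The background in this comparison was 3.21% of all units lower and 3.98% higher by that test, and 18.3% of all units had both shSov values lower.

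Picking in shW replicate 2 gave 26 blocks, with medians of 1.58 in the picking library, 1.47 in shW replicate 1 and 0.67 in shSov. The median difference from shW replicate 1 was -0.67, both shSov libraries were lower in 25 of the 26, and edgeR called 23 lower and 0 higher. The background was 13.7% of all units lower and 41.4% higher, and 22.8% of all units had both shSov values lower. The count of 23 is read against that background, which is far higher than with shW replicate 2. All 23 were also the blocks with an unadjusted p under 0.05 in edgeR. In both comparisons a lone shW library was assumed to vary as the shSov libraries do, although the shW ChIP replicates differed more. The 44 and 26 blocks share the 16, and both comparisons share the shSov libraries.

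With all 8 libraries and the 16 blocks, edgeR gave an adjusted p under 0.05 for a lower value in 10, against a background of 1.27% of all units. This uses the values that chose the blocks and is given as a description. The 6 blocks without the call were 2L-B, 3L-A, 3L-B, 3L-C, 3L-D and 3R-D. The median difference of the 16 was -0.83, from -1.77 to -0.30, and with every library set to the median of the intervals it was -1.06.

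**Figure D4:**
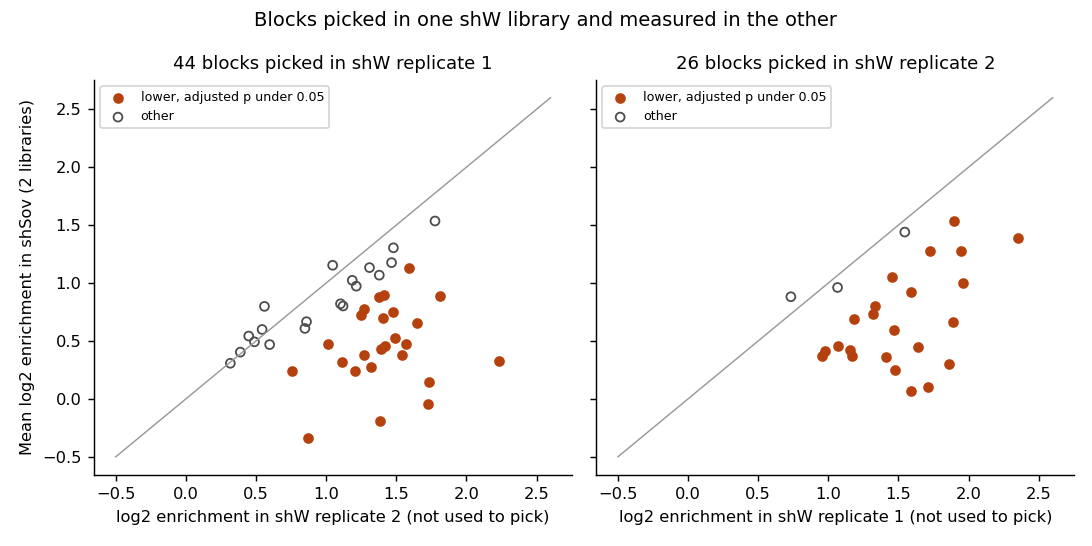
Mean log2 enrichment of each block in shSov (y axis) against its value in the shW library that did not pick it (x axis), for blocks picked in shW replicate 1 (left, 44) and replicate 2 (right, 26); filled points had lower enrichment in shSov at an edgeR adjusted p under 0.05, and the line marks equal values. Of the 44 blocks 25 are filled, and of the 26 blocks 23.

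Within the intervals, long blocks and short islands had like levels in shSov. Mean enrichment in the shSov libraries was 0.79 and 0.87 over the 114 block windows and 0.81 and 0.93 over the 515 windows of the short islands. The sets overlapped across the libraries, with the blocks slightly lower in each. Islands of 1 window had 0.75 and 0.90, islands of 2 windows had 0.84 and 0.97, and islands of 3 or 4 windows had 0.85 and 0.93. The share of windows at the level in both shSov libraries was 28.1% in blocks and 31.7% in islands. The control mean was 1.39 in islands of 1 window and 1.73 in blocks, but run length was set by those same values. Across the 16 blocks, r was 0.22 between length and shSov level and 0.18 between the shW and the shSov level, as descriptions with no test.

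Runs of 5 or more enriched windows outside the intervals on these 3 arms, 98 in all, had higher levels in shSov. Their 1357 windows averaged 1.87 in both shSov libraries and 2.21 ± 0.01 (SD, n = 2) in shW, and 90.5% of them stayed at the level in both shSov libraries. The shSov values of these runs lay above those of the blocks by more than 1 on the log2 scale in each library. The same rule found both sets, which differ in position. They also differ in shW level, at 2.21 outside and 1.73 in the blocks, and in mean input, at 5.75 and 9.55 RPKM. No test was made between them.

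**Figure D5:**
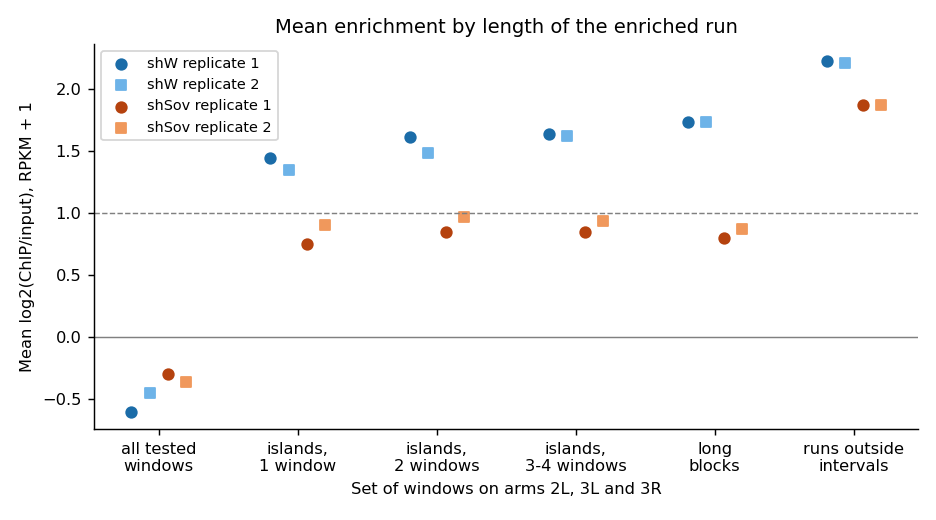
Mean log2 enrichment (y axis) of the sets of windows named on the x axis, 1 point per library, with lines at 0 and 1. The blocks sit within the range of the short islands in shSov replicate 1, at 0.79, and just under it in replicate 2, at 0.87. The runs outside the intervals sit at 1.87 in shSov.

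Input DNA over the blocks was close to that of their surroundings. The ratio of block input to the input of the flanks up to 20 kb ran from 0.64 in block 3L-D to 1.03 in block 3R-F, with a median of 0.92. Median block input was 8.67 and 9.17 RPKM in shW and 9.14 and 9.29 RPKM in shSov. The genotype difference in input was between -0.14 and 0.33 on the log2 scale, and was highest in block 3R-E. ChIP signal alone, without input, lay lower in both shSov libraries than in both shW libraries in all 16 blocks, with a median difference of -0.66. The same order was found in 16.9% of all units, and nothing is read from the count of 16, since the shW ChIP values chose the blocks. Across blocks, input level and shSov enrichment had r = -0.00080. Windows with too little input made up 3.75% of the flanks up to 20 kb and 3.48% of the intervals. Among the 160 windows nearest the blocks 9 were of this kind, 7 of them with no input read at all, and they lay beside 3 blocks.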

How the data were processed

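Per the labels, fixed ovaries were lysed and sonicated, and gel-selected fragments were read from 1 end. Per the submitters' processing notes, Bowtie and bedtools were used with build dm3; versions, treatment of reads with several matches and removal of duplicates are not given in the sources used here. The authors deposited, for each library, the raw count of reads and the RPKM of 168744 windows. The deposited RPKM equals the count scaled by window length and library total, with no input subtracted. No spiked-in chromatin is described, so values are relative to each library's total.

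Each ChIP was set against the input of its own number, replicate 2 being the one whose title says repeat. Enrichment used a pseudocount of 1 RPKM. Summed counts were tested with edgeR 4.0.16 with library totals as offsets, and Benjamini-Hochberg adjustment covered all units. DESeq2 1.42.0 and limma 3.58.1 were alternatives, beside other thresholds, scalings and libraries left out. The tests were checked on simulated data. Members, lists and tests were chosen with earlier results of these data known. The rule for named blocks was the 5 longest, the 5 highest and 5 lowest in shSov, and the 5 largest falls and 3 largest rises (none rose); with 16 blocks, all are named. Read counts of amplified libraries are not independent molecules. The exact permutation test was not used, since 2 libraries against 2 cannot pass a threshold of 0.05.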

Additional observations from a re-analysis of the deposited data

How the results depend on the processing

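In order, the values that follow are the number of blocks (16 as reported), the median shSov enrichment (0.75) and kept blocks (1). After these come lost blocks (10) and the mean shSov flank at 1 to 5 kb (-0.04). Each is named where it moved by more than its limit, unless said to be within it. The limit was 1.5 times for counts and the SD of the shSov replicates, 0.009, for the median and the flank. A pseudocount of 0.1 RPKM gave a median of 0.76 and a flank of -0.0598, and one of 5 RPKM gave 8 blocks, 0.65, 5 lost and -0.0838. An input minimum of 1 RPKM gave a median of 0.80 and 0 kept. Without an input filter the median was 0.87, with 0 kept and a flank of -0.0227, while 19 blocks and 11 lost were within the limit. An enrichment of 1.5 gave 4 blocks, 0.94, 0 kept, 3 lost and -0.12. With no gap joined there were 11 blocks, within the limit, with a median of 0.83, 0 kept, 6 lost and a flank of -0.035. With gaps of 2 windows the flank was -0.0895. A minimum of 10 windows left 1 block, with 0.33, 0 kept, 1 lost and -0.0311. Centring each library on the intervals gave 94 blocks, 0.84, 16 kept, 46 lost and a flank of 0.18, which reversed its sign because the centring subtracts a negative median. The mean of all inputs gave 0.80 and -0.12, and thinning to equal depth gave 0.66 and -0.0684. The cause of the other shifts was not tested.

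Leaving out 1 library at a time gave 16 to 44 blocks (26 without shW replicate 1 and 44 without shW replicate 2), a median of 0.60 to 0.76, 1 to 3 kept, 5 to 31 lost and a flank of -0.12 to -0.035. The test of shSov ChIP over input called 10 to 11 of the 16. The held-out median differences were -0.53 to -0.43 for blocks picked in shW replicate 1 and -0.74 to -0.64 for those picked in shW replicate 2. With blocks of both shW replicates and all 8 libraries, 10 of 16 were called lower in place of 25 of 44 and 23 of 26. Leaving out a shW library, thinning, centring of the shSov test, the input minimum of 1 RPKM, the 1.5 threshold, the gap and length settings and the mean of inputs for the flank alone, and crossed numbers were chosen after seeing the data.

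The replicate block gave 16 calls in the shSov test and 27 and 23 in the held-out comparisons, against 16, 25 and 23 without it. Deviations of same-numbered libraries had correlations of 0.232 between shSov ChIP and input, 0.0916 between shW ChIP and input, -0.131 between the ChIP groups and -0.166 between the inputs, so no block entered the tests. The enrichment values do set each ChIP against the input of its own number; the mean of all inputs, above, is the alternative. The crossed pairing gave 27 and 23. Depth limits the shW side most, with a median of 18 reads per window in replicate 1.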

Other observations

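Several runs outside the 16 blocks had the same loss in shSov. A run of 4 windows on 3L, at 14013001 to 14017000, had 1.95 and 2.11 in the shW libraries and 0.17 and 0.03 in the shSov libraries. Another on 3L, at 16780001 to 16784000, had 1.73 and 1.51 in shW and -0.10 and -0.03 in shSov. By contrast the run at 4188001 to 4192000 on 3L had 1.45 and 1.66 in shW and 1.34 and 1.60 in shSov, and all 4 of its windows stayed at the level. These 3 were chosen after their values were seen, from the 16 runs of 4 windows, and have no test.

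Next to block 3R-H, the window 2 kb outside its left edge had 0.49 and 0.54 in the shSov libraries and -0.96 and -0.22 in the shW libraries, the opposite order to the block itself. From 2 to 8 kb outside that edge, both shSov values lay above both shW values in every window. At 3 kb, for example, shSov had 0.37 and 0.28 and shW had -0.95 and -1.18. These windows were chosen after their values were seen.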
